A study of Rattus norvegicus with 6 samples.

Results

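The genes described here are the chemokines and chemokine receptors of the rat: the protein-coding genes of the deposited table whose symbol begins with Ccl, Cxcl, Ccr, Cxcr or Ackr and a number, together with Cx3cl1, Cx3cr1, Xcl1 and Xcr1. By this rule there were 56 among the 37991 genes of the table: 34 ligands, 18 signalling receptors and 4 atypical receptors. The study sequenced RNA of oligodendrocyte precursors from SD rats cultured in Raff medium (3 libraries) and of such cells after differentiation by a change of growth factors (3 libraries). Both groups came from the same kind of culture, and the labels name no other treatment, allele or age. The replicates of each group are numbered 1, 2 and 5, and the titles of replicates 1 and 2 give day 0 for the precursors and day 3 for the differentiated cells. The labels do not say that replicates are separate animals or cultures, so p-values here reflect only how far these libraries spread, which may be technical.

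Chemokines are small secreted proteins that steer migrating cells through G protein-coupled receptors on the cell surface. Most ligands fall into the CC and CXC classes, named for the spacing of their first cysteines, and atypical receptors bind ligands without coupling to G proteins. In the central nervous system, Cxcl12 and its receptor Cxcr4 are known for guiding oligodendrocyte precursors, whereas Ccl2, Ccl3 and Cxcl10 are known as products of activated glia.

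Of the 56 genes, 26 had enough reads to be tested, 15 had reads but too few for a test and 15 were listed at 0 in all 6 libraries. The tested genes comprised 10 CC ligands, 10 CXC ligands, Cx3cl1, 4 signalling receptors and Ackr3. A gene passes the filter on low counts if it is well covered in either group alone, so the tested genes are not a neutral sample of the 56. Counts and levels of the tested genes are therefore given as a description.

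The ligands Cxcl12, Cxcl13 and Cxcl14 fell from precursor to differentiated cells: the mean of Cxcl12 went from 21.6 to 7.65 CPM (library-scaled counts), that of Cxcl14 from 157 to 58.3 CPM, and Cxcl13 had no reads left. The call of Cxcl13 was lost in each of the 6 fits that left out 1 library, with adjusted p between 0.0564 and 0.0996 by edgeR. Most of the inflammatory ligands, such as Ccl2, Ccl7, Ccl20 and Cxcl1, were also lower in each differentiated library than in the precursor library of the same number, but their levels spread widely between replicates and the test between groups did not call them. Cxcr4, the receptor for Cxcl12, was higher in all 3 differentiated than in all 3 precursor libraries, and missed the threshold of the same test. By the edgeR quasi-likelihood test at an adjusted p under 0.05, 3 chemokine genes were lower, beside 3.21% of all tested genes, and 0 were higher, beside 5.65% of all tested genes. At an unadjusted p under 0.05 the same test gave 9 lower, beside 10.7% of all tested genes, and 1 higher, beside 12.4%. DESeq2 called 4 lower after adjustment, beside 7.03% of all tested genes, and 1 higher, beside 8.55%. The median log2 fold change of the 26 tested genes (differentiated against precursor) was -1.58, the same with Cxcl13 set to its bound, beside -0.04 over the 17797 genes tested. Without precursor 1 it was -0.68, beside -0.02 over all tested genes. Negative values made up 22 of the 26, beside 53.3% of all tested genes.

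Same-numbered libraries of the 2 groups deviated together, and with the replicate number as a block in the fit edgeR called 17 chemokine genes lower, beside 15.7% of all tested genes, and 1 higher, beside 14.9% of all tested genes. Among the 17 were Ccl2, Ccl3, Ccl4, Ccl7, Ccl12, Ccl20, Cxcl1, Cxcl2, Cxcl6, Cxcl10, Cxcl11, Cxcl12, Cxcl13, Cxcl14, Cxcl16 and Ccr1, and the gene called higher was Cxcr4. The plot of fold changes with and without the block shows, for most genes, nearby estimates with smaller errors under the block.

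**Figure D1:**
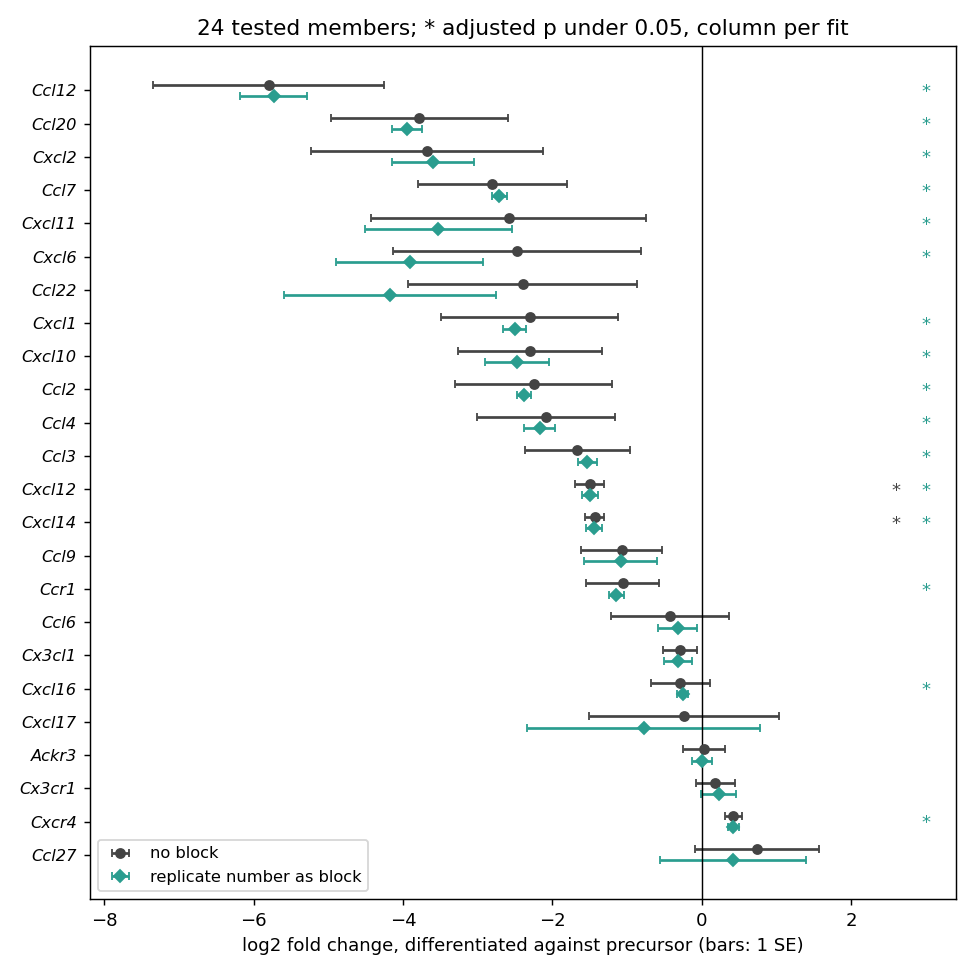
Log2 fold change, differentiated against precursor cells, of 24 tested chemokine and receptor genes (without Cxcl13, which had no reads in differentiated cells), from edgeR without a block (circles) and with the replicate number as a block (diamonds); bars are 1 SE and stars mark an adjusted p under 0.05. Of the genes drawn, Cxcl12 and Cxcl14 are called by both fits, 13 further genes are called lower only with the block, and Cxcr4 is called higher only with the block.

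The replicate 1 libraries stood apart for most of these genes. For 15 of the 26 tested genes the replicate 1 level was over 2 times the mean of replicates 2 and 5 in both groups, beside 4.16% of all tested genes. Ccl2 was 6.12 times the mean of the other precursor libraries in precursor 1 and 7.54 times the mean of the other differentiated libraries in differentiated 1. The same ratios were 1.05 and 0.973 for Cxcl12, 0.880 and 1.19 for Cxcl14, and 1.05 and 0.932 for Cxcr4, so these 3 genes did not share the excess. With both replicate 1 libraries left out, only replicates 2 and 5 of each group remained. That fit called 15 genes lower, beside 8.29% of all tested genes, and Cxcr4 higher, beside 8.69% of all tested genes. Of those 15, 14 were among the 17 called with the block. Ccl22 was called only without replicate 1, and Cxcl2, Cxcl11 and Cxcl16 only with the block. Among those called without replicate 1, Ccl22, Cxcl6 and Cxcl13 had 0 reads in differentiated 2 and 5.

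**Figure D2:**
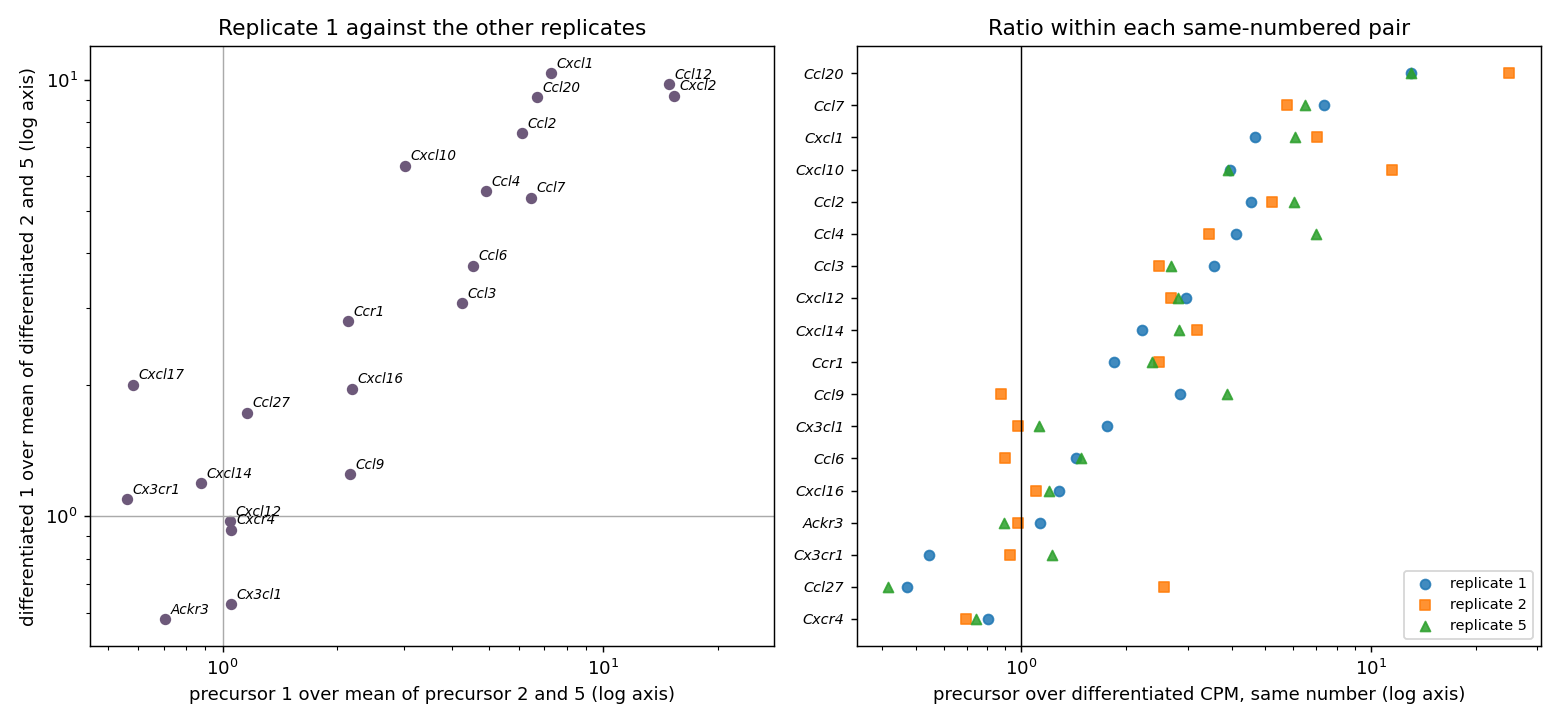
Left, for 21 tested genes, the level in precursor 1 over the mean of precursor 2 and 5 (horizontal, log axis) against the same ratio for differentiated cells (vertical, log axis). Right, for 18 tested genes, the precursor level over the differentiated level within each same-numbered pair (log axis); genes with a ratio of or over 0 are not drawn. The inflammatory ligands lie far up and to the right on the left panel and Cxcl12, Cxcl14 and Cxcr4 near 1, while on the right panel the pair ratios of Ccl2 lie close together at 4.54, 5.21 and 6.04.

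Markers of microglia and macrophages, cells that can make and sense many chemokines, were also highest in the replicate 1 libraries, as were those of several other cell types. Their summed level over 20 genes was 1884, 797 and 763 CPM in precursors 1, 2 and 5 and 1417, 797 and 742 CPM in differentiated 1, 2 and 5, where CPM is the read count scaled to a common library size with edgeR's TMM factors. The ratio of precursor to differentiated cells within the 3 pairs was 1.33, 1.00 and 1.03 for this sum, against 4.54, 5.21 and 6.04 for Ccl2. By the edgeR test 1 of the 19 tested microglial markers rose, the complement gene C1qc, and 0 fell. At an unadjusted p under 0.05, 2 were higher and 0 lower. DESeq2 gave 1 and 0, and the block gave 2 and 5. Over all tested genes, the shares lower were 3.21% by edgeR, 10.7% unadjusted, 7.03% by DESeq2 and 15.7% with the block. The shares higher were 5.65%, 12.4%, 8.55% and 14.9% in the same order, and these stand beside the lists below too. Among the defining markers, Aif1 ranged from 29.7 to 149 CPM in precursor and from 28.7 to 76.8 CPM in differentiated libraries, Csf1r from 109 to 260 and from 133 to 221, and Itgam from 74.9 to 174 and from 51.9 to 117. Of these 3, Itgam was called lower with the block, with an adjusted p of 0.00121 by edgeR. Cd53, Cd68, Ptprc and Tyrobp were also called lower with the block, and C1qb and C1qc higher. The log2 fold change of Cd53 with the block was -1.05, so the sum does not stand for each marker. No marker of this list was at 0 in all libraries, and Siglech had reads in precursor 5 alone. The part of these cells in the chemokine levels was not tested, and in bulk RNA fewer cells of a type and less RNA per cell cannot be told apart.

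Lists for other cell types were read in the same way. The level of replicate 1 over the mean of replicates 2 and 5, in precursor and in differentiated cells, was 2.41 and 1.84 for the microglial sum, 2.18 and 1.69 for the endothelial, 2.42 and 1.64 for the lymphocyte and neutrophil, 2.26 and 1.17 for the fibroblast and pericyte and 0.747 and 1.01 for the astrocyte sum. Endothelial markers summed to between 19.5 and 52.2 CPM in precursor and 23.8 and 44.0 CPM in differentiated libraries, with 0 of 9 tested genes called by edgeR, at an unadjusted p under 0.05 or by DESeq2, and 1 higher with the block. Pecam1 was under 1 CPM throughout, and Cldn5, Erg and Emcn were at 0. Lymphocyte and neutrophil markers summed to between 11.0 and 28.3 CPM in precursor and 19.6 and 34.3 CPM in differentiated libraries, with Cd3d, Cd3e, Cd3g, Cd79a, Ncr1 and S100a9 among those at 0. Nearly all of that sum was Cd4, at 9.01 to 26.0 CPM, and Cd8a, at 1.602 to 8.36 CPM, the 2 tested genes of the list. Neither was called by edgeR, and Cd4, which macrophages and microglia of the rat also express, was called higher with the block (adjusted p of 0.0348) and without replicate 1 (0.00714). Astrocyte markers were high, between 4266 and 5971 CPM in precursor and 7646 and 7880 CPM in differentiated libraries, and 6 of 12 rose, among them Aldh1l1, Slc4a4, Fgfr3 and Aldoc. Their defining members Gfap and Aqp4 missed the threshold, with adjusted p of 0.0849 and 0.161 by edgeR, and were called higher with the block, with 0.0138 and 0.00441, as were 9 of the 12. Fibroblast and pericyte markers summed to between 164 and 376 CPM in precursor and 329 and 406 CPM in differentiated libraries. Tagln alone had 216, 319 and 274.5 CPM in differentiated 1, 2 and 5, so the ratio of 1.17 rests mostly on Tagln. Of the other genes Col3a1, named after its values were seen, was the highest. It had 221, 50.1 and 53.6 CPM in precursors and 126, 22.1 and 24.6 CPM in differentiated cells. Pdgfrb did not share that excess of replicate 1 in differentiated cells. Tagln and Pdgfrb rose, the block gave 5 of the 10 tested genes lower, Col1a1 (adjusted p of 0.0208 with the block) among them. Col1a1 ranged from 1.94 to 15.9 CPM and Rgs5 was at 0.

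**Figure D3:**
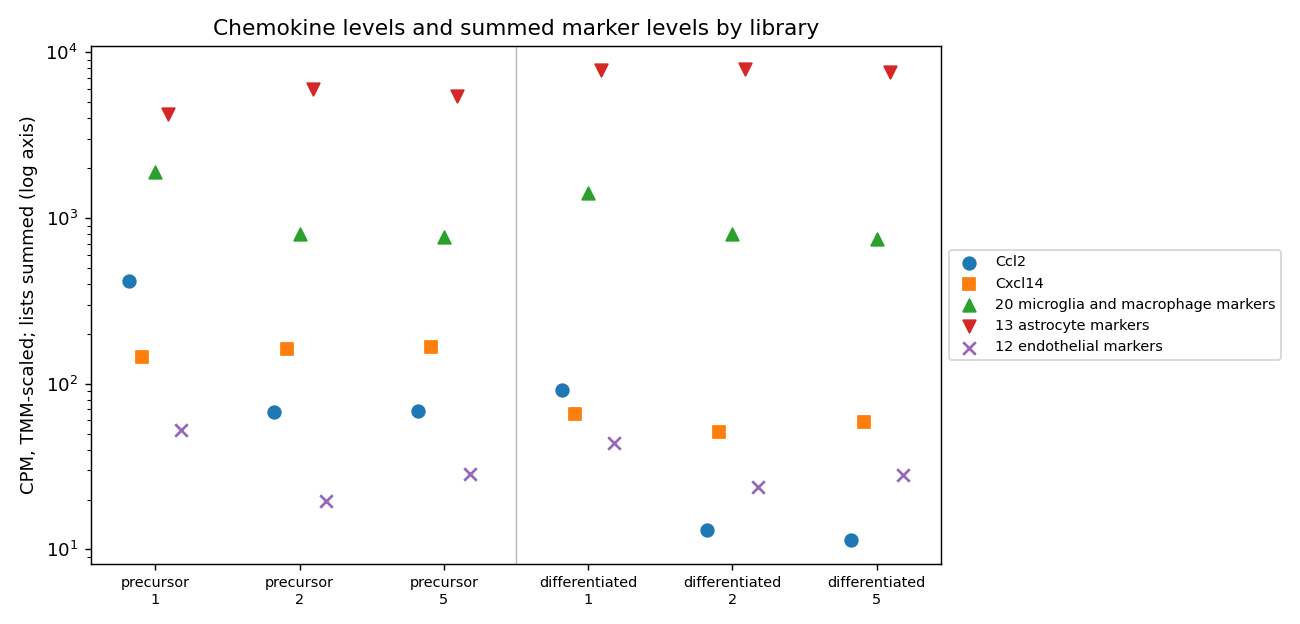
Levels in each of the 6 libraries (CPM, TMM-scaled, log axis) of Ccl2 and Cxcl14 and the summed levels of the microglial, astrocyte and endothelial marker lists. Ccl2 and the microglial sum are highest in the replicate 1 library of each group, with 417 and 91.9 CPM of Ccl2, while Cxcl14 lies between 144 and 167 CPM in precursors and between 50.8 and 65.2 CPM in differentiated cells.

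The libraries held 55522101 to 79898629 counted reads, so that 1 CPM rested on 55.0 to 72.0 reads, and a count of 0 allows a level of up to 0.0417 to 0.0546 CPM per library (3 counts, counting error only). Of 11 oligodendrocyte lineage markers 6 rose by edgeR, and Mog, a late myelin protein, went from 1.72 ± 0.216 to 74.4 ± 3.37 CPM (SD, n = 3). A lone 0 may be a failed estimate in this table: 115 times, a gene with 20 or more reads in 5 libraries was listed at 0 in the remaining library.

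Per transcript length Ccl2 had the family's highest mean in precursors, at 245 TPM (a level scaled for transcript length and library, as deposited). Cxcl14 followed at 114, Ccl7 at 80.0, Cxcl16 at 58.1, Ccl3 at 51.5 and Cxcr4 at 47.4 TPM. In differentiated cells the order of means was led by Cxcr4 at 53.4 TPM, then Ccl2 at 43.4, Cxcl16 at 40.2, Cxcl14 at 34.4 and Ccl3 at 13.9 TPM. Neighbours in these orders overlapped in their libraries, except Cxcl14 and Ccl3 in differentiated cells. Ccl2 spanned 98.7 to 517 TPM and Cxcl14 86.3 to 141 TPM in precursors, and Cxcr4 spanned 44.0 to 60.9 TPM and Ccl2 15.4 to 98.1 TPM in differentiated cells. The place of Ccl2 rested on replicate 1. In precursors 2 and 5 it had 98.7 and 120 TPM, below Cxcl14 at 113 and 141 TPM. In differentiated 2 and 5 it had 16.5 and 15.4 TPM, below Cxcl16 at 32.9 and 34.2 TPM and Cxcl14 at 31.1 and 38.6 TPM. Summed over the ligands, the level was 1246, 372 and 450 TPM in precursors 1, 2 and 5 and 270, 109 and 116 TPM in differentiated 1, 2 and 5, a ratio of 4.61, 3.41 and 3.89 within pairs. The receptor sum was 98.9, 85.7 and 95.5 TPM in precursors and 74.1, 78.7 and 72.9 TPM in differentiated cells, a ratio of 1.33, 1.09 and 1.31. The atypical receptors summed to between 2.50 and 6.05 TPM in any library.

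**Figure D4:**
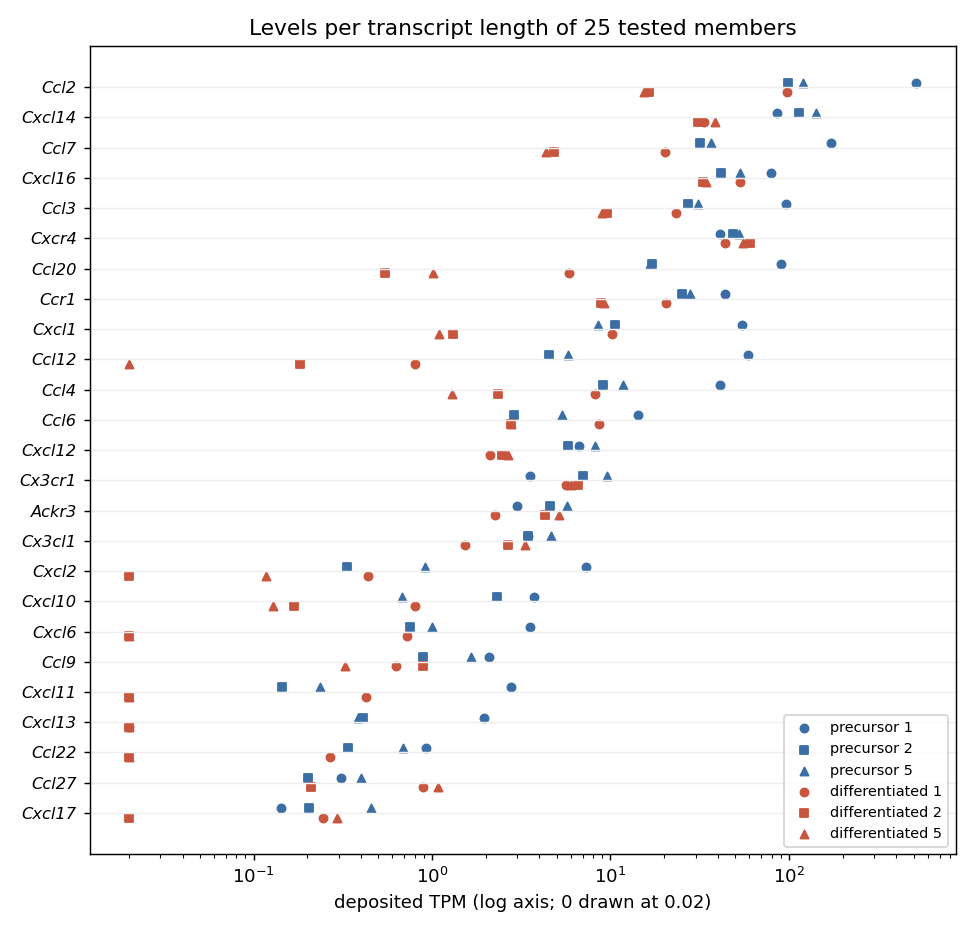
Deposited TPM (log axis) of 25 tested chemokine and receptor genes in each library, ordered by their mean in precursors; values of 0 are drawn at the left edge. Ccl2 leads in precursors at a mean of 245 TPM, and Cxcr4 leads in differentiated cells at 53.4 TPM, where its libraries overlap those of the precursors.

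The ligands of the monocyte chemoattractant group, Ccl2, Ccl7 and Ccl12, are close relatives that draw monocytes to inflamed tissue. Ccl2 had 417, 67.8 and 68.6 CPM in precursors 1, 2 and 5 and 91.9, 13.02 and 11.4 CPM in differentiated 1, 2 and 5. Differentiated 1 exceeded precursors 2 and 5, so the groups overlapped, although each differentiated library was below the precursor library of its number. For Ccl2 the log2 fold change was -2.25 ± 1.05 (SE), with an adjusted p of 0.255 by edgeR, -2.38 and 5.62e-05 with the block, and -2.48 and 9.49e-05 without replicate 1. Ccl7 had 143, 22.6 and 21.7 CPM in precursors and 19.5, 3.94 and 3.33 CPM in differentiated cells. Here the groups did not overlap, and within pairs the precursor level was 7.34, 5.75 and 6.51 times the differentiated level. For Ccl7 the log2 fold change was -2.80 ± 0.996 (SE), with an adjusted p of 0.146 by edgeR and 5.25e-05 with the block. Ccl12 had 33.05, 2.17 and 2.28 CPM in precursors and 0.530, 0.109 and 0 CPM in differentiated cells, where the last 2 values rest on 7 and 0 reads. Its groups did not overlap, and its log2 fold change was -5.80 ± 1.54 (SE), with an adjusted p of 0.0646 by edgeR and 0.000381 with the block.

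Ccl3 and Ccl4 are ligands of Ccr1 that macrophages and microglia make. Ccl3 had 75.0, 18.1 and 17.2 CPM in precursors and 21.0, 7.28 and 6.41 CPM in differentiated cells. Its groups overlapped through differentiated 1, and the adjusted p of the log2 fold change of -1.66 ± 0.708 (SE) was 0.216 by edgeR and 0.000462 with the block. Ccl4 had 31.2, 6.14 and 6.60 CPM in precursors and 7.58, 1.78 and 0.947 CPM in differentiated cells, with adjusted p of 0.235 by edgeR and 0.000813 with the block. Differentiated 1 was again above precursors 2 and 5.

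Ccl20 is the ligand of Ccr6. It had 75.0, 12.4 and 9.98 CPM in precursors and 5.74, 0.496 and 0.764 CPM in differentiated cells, and the groups did not overlap. Within pairs the precursor level was 13.1, 25.0 and 13.1 times the differentiated level. Its log2 fold change was -3.78 ± 1.18 (SE), with an adjusted p of 0.104 by edgeR and 0.000102 with the block. DESeq2 also called Ccl20 lower. Its receptor Ccr6 had at most 12 reads in a library and was not tested.

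Cxcl1, Cxcl2 and Cxcl6, relatives that draw neutrophils, were low or at 0 in the differentiated libraries outside replicate 1. Cxcl1 had 53.0, 8.73 and 5.85 CPM in precursors and 11.4, 1.24 and 0.965 CPM in differentiated cells. Its groups overlapped through differentiated 1, and the log2 fold change of -2.31 had an adjusted p of 0.298 by edgeR and 0.000185 with the block. Cxcl2 had 8.31, 0.335 and 0.750 CPM in precursors and 0.585, 0 and 0.127 CPM in differentiated cells, with most of its reads in precursor 1. Cxcl6 had 9.62, 1.76 and 1.90 CPM in precursors and 2.36, 0 and 0 CPM in differentiated cells. Both were called lower with the block, and Cxcl6 also without replicate 1, with an adjusted p of 0.00223 by edgeR, and without differentiated 1 alone, with 0.0273. Cxcl3, of the same group, had 167 reads in precursor 1 and 19 in differentiated 2, none in the others, and was not tested.

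Cxcl10 and Cxcl11, interferon-induced ligands of Cxcr3, were scarce. Cxcl10 had 4.36, 2.32 and 0.570 CPM in precursors and 1.10, 0.202 and 0.146 CPM in differentiated cells. Cxcl11 had 3.03, 0.140 and 0.194 CPM in precursors and 0.543, 0 and 0 CPM in differentiated cells. In both genes differentiated 1 lay above at least 1 precursor library, and both were called lower only with the block or, for Cxcl10, also without replicate 1. Cxcl9, the third ligand of this group, had at most 7 reads in a library, and Cxcr3 at most 14.

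The promoter sequences of these ligands were read from RefSeq (assembly GRCr8, the 250 bases before each transcription start), which held an entry for 42 of the 56 genes and 22 of the 26 tested ones. They were searched on both strands for the kappaB motif bound by NF-kappaB, the interferon-stimulated response element (GAAA, any 2 bases, GAAA) and the AP-1 motif TGANTCA. Ccl2, Ccl3 and Ccl4 were among the tested genes without an entry. A kappaB match was present in 8 of the 22 tested genes and in 7 of the 13 with a promoter that were called lower with the block, beside 6.33% of 33469 promoters. The response element matched in 1 of the 22 (Cxcl10), beside 3.41% of promoters, and the AP-1 motif in 4 of the 22 (Ccl7, Cxcl10, Cxcl11 and Cxcl14), beside 6.34%. The shares of promoters are over all entries, of tested and untested genes alike, while 1 entry was read per chemokine gene. No share was taken over all genes called lower with the block, so 7 of 13 has no like figure beside it. A match is a description of the letters and no evidence of binding. The lines below show the kappaB matches of the 7 ligands called lower with the block, with the matched bases in capitals and 35 bases on either side, 5' to 3' on the strand of the gene.
Ccl7, chr10:67514001-67514080, plus strand: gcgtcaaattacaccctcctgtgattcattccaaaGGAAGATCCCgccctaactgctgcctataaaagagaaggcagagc
Ccl20, chr9:91837035-91837114, plus strand: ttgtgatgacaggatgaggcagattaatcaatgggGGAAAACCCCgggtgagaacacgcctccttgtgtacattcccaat
Cxcl1, chr14:17479360-17479440, minus strand: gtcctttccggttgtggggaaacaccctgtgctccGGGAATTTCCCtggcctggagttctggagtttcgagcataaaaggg
Cxcl2, chr14:17467284-17467364, minus strand: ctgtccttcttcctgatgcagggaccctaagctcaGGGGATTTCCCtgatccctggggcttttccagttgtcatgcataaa
Cxcl6, chr14:17596460-17596540, minus strand: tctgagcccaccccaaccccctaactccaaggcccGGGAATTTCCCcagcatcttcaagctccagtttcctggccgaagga
Cxcl10, chr14:15988844-15988923, plus strand: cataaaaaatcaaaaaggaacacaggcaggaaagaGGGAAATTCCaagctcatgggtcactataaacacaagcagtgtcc
Cxcl10, chr14:15988903-15988983, plus strand: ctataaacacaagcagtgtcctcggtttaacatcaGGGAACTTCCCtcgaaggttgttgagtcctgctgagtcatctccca
Cxcl11, chr14:15973619-15973698, plus strand: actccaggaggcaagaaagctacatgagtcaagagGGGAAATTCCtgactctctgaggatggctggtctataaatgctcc

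Cxcl1, Cxcl2 and Cxcl6 lie on the minus strand of chromosome 14. Their capitals join overlapping matches on both strands and begin 84, 74 and 88 bases before the transcription start. In Cxcl10 there were 2 matches, 187 and 128 bases before the start, the latter again joined from both strands. In Ccl7 and Ccl20 the matches began 59 and 89 bases before the start and lay on the strand opposite to the gene. The other tested gene with a match was Ccl9, which was called in neither fit.

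Cxcl12 and Cxcl14, ligands that healthy tissues make without inflammation, fell, and neither had an excess in replicate 1. Cxcl12 had 22.3, 17.7 and 24.8 CPM in precursors 1, 2 and 5 and 7.51, 6.59 and 8.85 CPM in differentiated 1, 2 and 5, a mean of 21.6 ± 3.58 against 7.65 ± 1.14 CPM (SD, n = 3). Every differentiated library was below every precursor library. The log2 fold change of Cxcl12 was -1.50 ± 0.195 (SE), with an adjusted p of 0.00448 by edgeR, and it was called in all 6 fits that left out 1 library, with adjusted p between 0.00924 and 0.0328. Cxcl14 had 144, 161 and 167 CPM in precursors and 65.2, 50.8 and 58.8 CPM in differentiated cells, a mean of 157 ± 11.7 (SD, n = 3) against 58.3 ± 7.23 CPM. Its precursor libraries were all above its differentiated libraries by a ratio within pairs of 2.21, 3.18 and 2.84. The log2 fold change of Cxcl14 was -1.43 ± 0.129 (SE), with an adjusted p of 0.00107 by edgeR and between 0.00106 and 0.0107 when a library was left out. Its promoter holds the AP-1 match, shown here with the matched bases in capitals because it is the match found in a gene called by every fit.
Cxcl14, chr17:8323016-8323092, plus strand: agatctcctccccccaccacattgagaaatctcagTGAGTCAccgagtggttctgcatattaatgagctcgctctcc

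Cxcl13, the ligand of Cxcr5 that draws B cells, had 145, 30 and 24 reads in precursors 1, 2 and 5 and 0 reads in each differentiated library. Against 3 counts over the group this is at least 61.2-fold lower, a bound for counting error only, with most of the precursor reads in precursor 1. The adjusted p was 0.0374 by edgeR, but each of the 6 fits that left out 1 library lost the call, with adjusted p between 0.0564 and 0.0996. Its receptor Cxcr5 had at most 44 reads in a library and was not tested.

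Cx3cl1 and Cxcl16 are made as membrane-anchored proteins and shed as soluble ligands. Cxcl16 had 141, 62.3 and 66.3 CPM in precursors and 109, 56.7 and 55.1 CPM in differentiated cells. The replicate 1 libraries were the highest of each group, and the groups overlapped. Its log2 fold change was -0.28 ± 0.391 (SE), with an adjusted p of 0.733 by edgeR, 0.0375 with the block and 0.264 without replicate 1. Cx3cl1 had 11.0, 9.46 and 11.4 CPM in precursors and 6.23, 9.64 and 10.1 CPM in differentiated cells, with differentiated 1 the lowest and an adjusted p of 0.502.

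Ccl6, Ccl9 and Ccl22 were scarce, and neither the fit without a block nor that with it called them. Ccl6 had 5.15, 0.894 and 1.37 CPM in precursors and 3.60, 0.992 and 0.928 CPM in differentiated cells. Ccl9 had 2.78, 1.02 and 1.56 CPM in precursors and 0.975, 1.16 and 0.400 CPM in differentiated cells. Ccl22, a ligand of Ccr4, had 1.68, 0.531 and 0.889 CPM in precursors and 0.571, 0 and 0 CPM in differentiated cells, and was called lower when replicate 1 was left out, with an adjusted p of 0.0202 by edgeR. In Ccl6 and Ccl22 the replicate 1 library was the highest of each group, and in all 3 genes the groups overlapped. Ccl27 and Cxcl17 were tested but had a mean under 1 CPM in both groups.

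**Figure D5:**
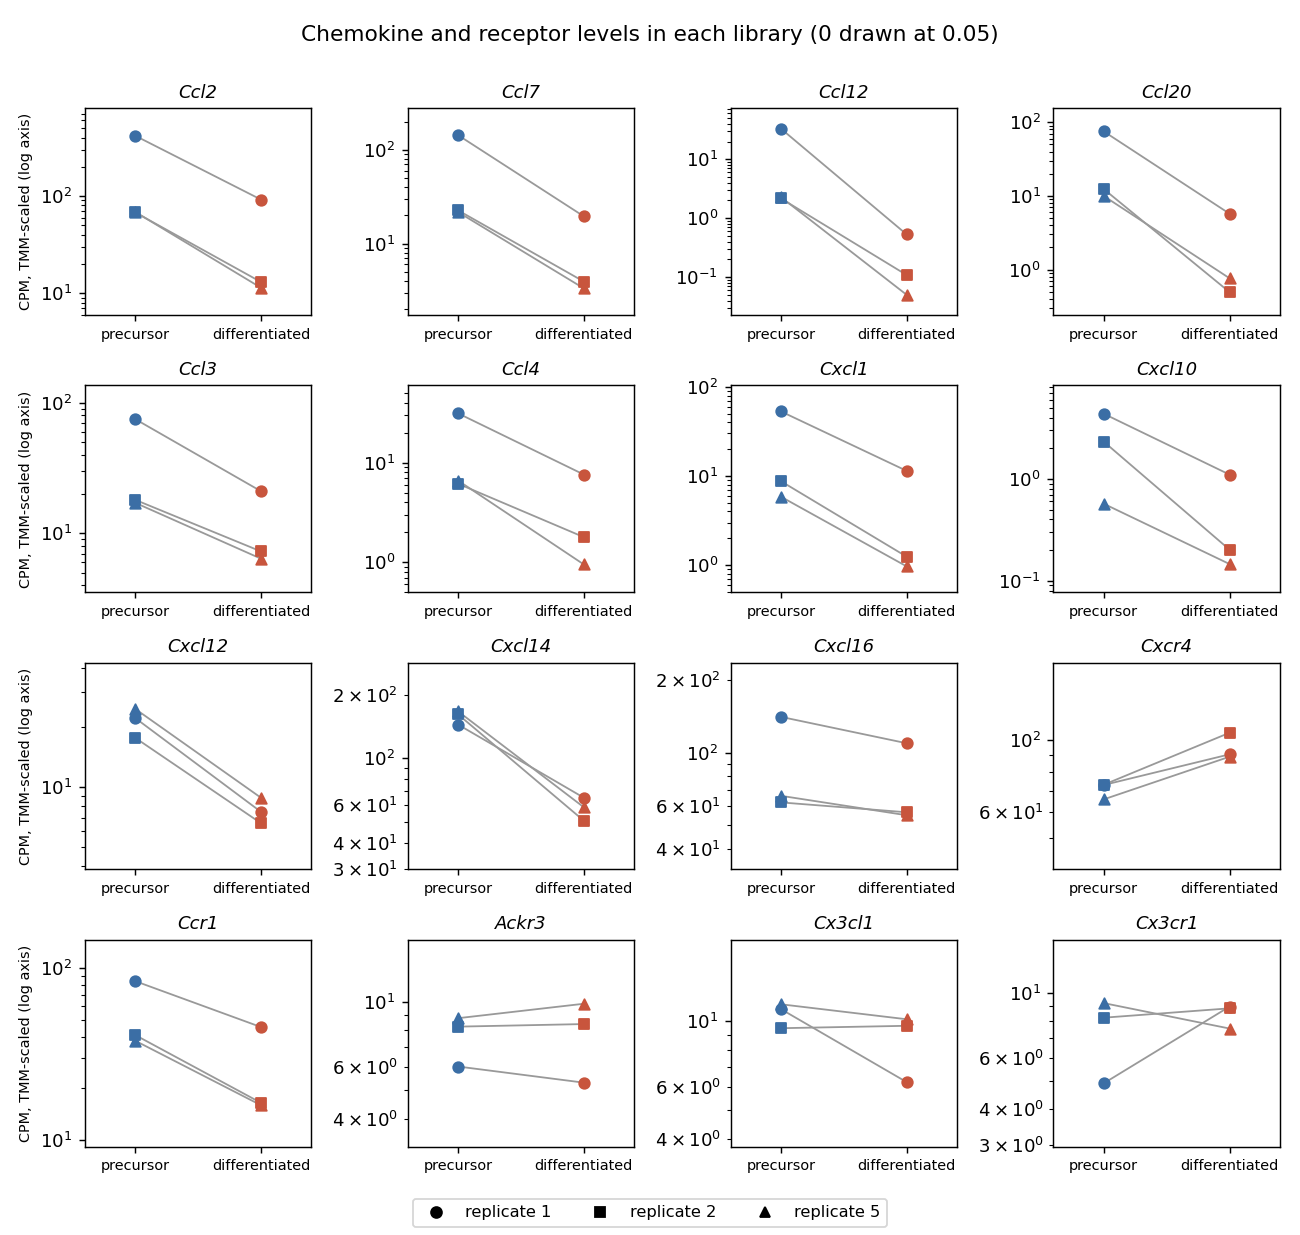
Levels (CPM, TMM-scaled, log axes that differ between panels) of 16 chemokine and receptor genes in each library, with lines joining the precursor and differentiated library of the same number. For Ccl2, Ccl7, Ccl20 and Cxcl1 all 3 lines run downward with replicate 1 above the others, and for Cxcl12 and Cxcl14 the 3 lines lie together. For Cxcr4 all 3 run upward, from between 65.8 and 72.9 to between 88.8 and 105 CPM.

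Among the receptors, Cxcr4 stood at 72.8, 72.9 and 65.8 CPM in precursors and 90.3, 105 and 88.8 CPM in differentiated cells. All 3 differentiated libraries were above all 3 precursor libraries. The log2 fold change was 0.43 ± 0.114 (SE), with an adjusted p of 0.0649 by edgeR and 0.00608 with the block. Without replicate 1 the adjusted p was 0.0366 by edgeR, and DESeq2 gave 0.0231. With library size alone the log2 fold change was 0.28, with an adjusted p of 0.2 by edgeR. None of the 6 fits that left out 1 library called Cxcr4, with adjusted p between 0.0752 and 0.279 by edgeR. On the deposited TPM scale the groups overlapped, with 41.2, 48.5 and 52.7 TPM in precursors and 44.0, 60.9 and 55.1 TPM in differentiated cells, and limma gave an adjusted p of 0.612. Its ligand Cxcl12 fell in the same libraries, as given above.

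Ccr1, a receptor for Ccl3 on myeloid cells, was lower in each differentiated library than in the precursor library of its number. Ccr1 had 83.9, 40.8 and 37.8 CPM in precursors and 45.4, 16.5 and 16.0 CPM in differentiated cells. Here too differentiated 1 lay above precursors 2 and 5, so the groups overlapped. For Ccr1 the log2 fold change was -1.06 ± 0.487 (SE), with an adjusted p of 0.249 by edgeR and 0.000643 with the block. The replicate 1 library was the highest of each group, as it was for the summed microglial markers.

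Cx3cr1, the receptor of Cx3cl1 that marks microglia, did not share that pattern. It had 4.90, 8.23 and 9.24 CPM in precursors and 8.99, 8.86 and 7.55 CPM in differentiated cells, with the lowest value in precursor 1. The groups overlapped, and the log2 fold change of 0.18 had an adjusted p of 0.741 by edgeR. Ackr3, the atypical receptor that takes up Cxcl12, had 6.02, 8.23 and 8.79 CPM in precursors and 5.31, 8.40 and 9.85 CPM in differentiated cells. Its groups overlapped, with an adjusted p of 0.967 for a log2 fold change of 0.03, whose sign turned under other scalings.

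The signalling receptors without a test were Ccr6, Ccr9, Ccr10, Cxcr3, Cxcr5, Cxcr6 and Xcr1, with at most 44 reads in a library, and the atypical receptors Ackr1, Ackr2 and Ackr4 had at most 24. The ligands without a test were Ccl5, Ccl24, Ccl25, Cxcl3 and Cxcl9, of which Ccl24 had 72 and 24 reads in precursors 1 and 2 and 0 elsewhere. The 15 genes at 0 were the ligands Ccl1, Ccl11, Ccl17, Ccl19, Ccl21, Ccl26, Ccl28 and Xcl1 and the receptors Ccr3, Ccr4, Ccr7, Ccr8, Cxcr1, Cxcr2 and Ccr1l1. A count of 0 in all 6 libraries allows a level of up to 0.00753 CPM over the series, a bound for counting error only. The neutrophil receptors Cxcr1 and Cxcr2 were listed at 0 in all 6 libraries, while their ligand Cxcl1 had reads in every library. Whether a 0 in all 6 libraries is a failed estimate was not tested, so these values do not show that the receptors were absent. Close relatives such as Cxcl1, Cxcl2 and Cxcl3, Ccl3 and Ccl4, or Ccl2, Ccl7 and Ccl12 can share reads, and how the counting split such reads, and with which strand setting, is not given in the sources used here.

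Of the tested genes, 6 had every differentiated library below every precursor library (Ccl7, Ccl12, Ccl20, Cxcl12, Cxcl13 and Cxcl14), beside 13.8% of all tested genes, and Cxcr4 alone had them above, beside 16.5%. Within the 3 same-numbered pairs 18 of the 26 were lower in every pair, beside 32% of all tested genes, and 1 was higher in every pair, beside 29.1%.

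The genes around the family were read from the same fit. Of 36 tested genes of the NF-kappaB pathway and its inflammatory mediators, 3 fell and 1 rose by edgeR, with a median log2 fold change of -0.53 beside -0.04 over all tested genes, and with the block 15 fell and 1 rose. Nfkbia, the inhibitor that NF-kappaB itself induces, went from 219 ± 21.0 to 89.7 ± 14.3 CPM (SD, n = 3), with an adjusted p of 0.00257 by edgeR. The cytokine Lif and the interleukin receptor Il1r1 also fell, and the inhibitor Nfkbib rose. Il1b, a cytokine that can induce chemokines, had 69.7, 1.12 and 1.81 CPM in precursors and 6.66, 0.713 and 0.528 CPM in differentiated cells, with the replicate 1 library highest in each group. It was named after its values were seen, and its adjusted p was 0.318 by edgeR, 0.019 with the block and 0.135 without replicate 1. Among 28 tested interferon response genes 0 rose and 0 fell by edgeR, with a median of -0.51. At an unadjusted p under 0.05, 1 was higher and 8 lower, DESeq2 called 1 higher and 6 lower, and with the block 20 fell and 1 rose. Over all tested genes, 3.21% fell by edgeR, 10.7% unadjusted, 7.03% by DESeq2 and 15.7% with the block. The shares that rose were 5.65%, 12.4%, 8.55% and 14.9% in the same order.

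Of 35 genes that carry signals from chemokine receptors, 1 rose and 1 fell: Elmo1, which activates Rac during migration, and Vav3, a guanine nucleotide exchange factor. With the block, 3 rose and 11 fell, beside 14.9% and 15.7% of all tested genes. Of 14 tested genes that are like chemokines or process them, Cmtm5 and Mif rose, Ppbp was at 0, and the block gave 4 higher and 3 lower. The medians of these lists were -0.10 and -0.11, beside -0.04 over all tested genes.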

How the data were processed

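Per the labels' protocols, total RNA taken up in ISOGEN went into stranded Illumina libraries. Per the submitters' processing notes, the tools named are StringTie 2.1.3b, HISAT2 2.1.0, Trimmomatic 0.38 and bcl2fastq 2.20.0. The notes name a human assembly while the table holds rat gene identifiers. Neither the rat build nor the annotation or strand setting is given in the sources used here. The authors deposited 1 table with, for each gene and library, a read count (whole numbers, not normalized), an FPKM and a TPM. The deposited FPKM values were not used. The deposited TPM values served to compare levels between genes.

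Counts of the 6 libraries were tested with edgeR 4.0.16 (quasi-likelihood, robust, TMM scaling, its filter on low counts, no block) in R 4.3.3, differentiated against precursor, with Benjamini-Hochberg adjustment over the 17797 genes that passed. The SE is the size of the log2 fold change over the root of the test's F. The scripts were tested on simulated data. Same-numbered libraries of the 2 groups deviated from their group means together, with correlations across genes of 0.421, 0.197 and 0.272 against at most 0.105 for other pairs. This paired the libraries under the rule applied, so values with the replicate number as a block stand beside results they change. Alternatives were DESeq2 1.42.0, library size scaling, no filter, limma 3.58.1 on log2(TPM + 1), leaving out each library, and leaving out both replicate 1 libraries.

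Named were the called genes of the family, those with a mean of at least 1 CPM in a group, the genes called in the other lists (at most 4 in each direction) and 10 defining cell markers. Some genes that the rule names are not reported here. The family and the lists were chosen with earlier results of these data known. Promoters came from RefSeq tables of GRCr8.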

Additional observations from a re-analysis of the deposited data

How the results depend on the processing

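Cxcl12 and Cxcl14 were called lower under every alternative run. Cxcl13 lost its call in all 6 fits that left out 1 library and on the TPM scale. Chemokine genes called lower numbered 3, and numbered 17 with the replicate block, 6 with limma on TPM, 15 without both replicate 1 libraries, and 15 when the block was added to that (an alternative chosen after the data were seen). They ranged from 2 to 6 when 1 library was left out, with 6 without differentiated 1. Genes called higher numbered 0, and 1 (Cxcr4) with the block, with DESeq2, without replicate 1, and without replicate 1 with the block. Over all genes, 1005 were higher and 571 lower. The block gave 2643 and 2797, DESeq2 1521 and 1252, limma on TPM 487 and 1000, leaving out replicate 1 1546 and 1475, and library size alone 1006 lower. Leaving out 1 library gave 456 to 911 higher and 162 to 579 lower. The log2 fold change of Ackr3 turned to -0.12 with library size alone and -0.17 on TPM, and that of Cx3cr1 to -0.04 on TPM and -0.083 without replicate 1. Leaving out 1 library gave -0.17 to 0.26 for Ackr3, -1.35 to 0.67 for Ccl6, -0.06 to 0.36 for Cx3cr1, -9.19 to 0.084 for Cxcl11 and -0.67 to 0.17 for Cxcl16, whose signs turned without precursor 1, and for Ackr3 also without differentiated 2 (-0.04) or 5. None of these turned values passed the threshold, and the cause of the changes was not tested. Library size alone moved the median of all genes from -0.04 to -0.19. At this depth 15 genes of the family had reads but too few for a test.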
